A study of Homo sapiens with 6 samples.

Results

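The genes described here are 10 genes with which nerve cells make, store, recycle, break down and sense acetylcholine: CHAT, SLC18A3, SLC5A7, ACHE, CHRNA3, CHRNA5, CHRNA7, CHRNB2, CHRNB4 and CHRM1. They were chosen by name, as the rows of the gene tables whose Ensembl identifier maps to these symbols, and they are 10 of the 60676 genes listed. The rule uses names alone, but the set was proposed with earlier results of these data known, so counts over it are no independent evidence. The cells were SK-N-BE, an established line from a human neuroblastoma, which turns neuron-like in retinoic acid, and their RNA was sequenced when they had spent 1.5 days in differentiation medium containing 10 μM of it. Control cells received a scrambled small interfering RNA (si-SCR, 3 libraries), and the other cells a pool of small interfering RNAs against the second exon of the long noncoding RNA CyCoNP (si-CyCoNP, 3 libraries). Both groups share the cell line, the retinoic acid and the transfection. Only 1 cell line and 1 pool were used, so effects of the single small interfering RNAs in the pool cannot be told apart. The labels do not say whether the 3 libraries of a group came from separate cultures, and the p-values measure only the spread between these libraries, which may be technical.

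Choline acetyltransferase, the product of CHAT, makes acetylcholine from choline and acetyl-CoA. The transporter encoded by SLC18A3 loads it into synaptic vesicles, the enzyme encoded by ACHE splits it in the synaptic cleft, and the transporter encoded by SLC5A7 takes the freed choline back up. The released transmitter opens nicotinic receptors, which are ion channels built from 5 subunits, and activates muscarinic receptors, which act through G proteins. Motor neurons and a part of the sympathetic neurons are cholinergic. Neuroblastoma arises from the sympathetic lineage, in which receptors with the CHRNA3 subunit receive the signal from the spinal cord. The study worked on human motor neuron development, and the comparison asks which of these genes differ in level when CyCoNP is depleted.

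The depletion itself was seen in the data. LINC02381, the gene of CyCoNP, had 274, 208 and 315 counts in si-SCR, against 20, 30 and 12 in si-CyCoNP, and kept 7.27% of its normalised count (log2 fold change -3.78). Total counts per library lay between 3762009 and 4799407, far fewer than the reads that the study's methods state, and the gap was not analysed, so depth here means counted fragments. The labels name a neuroblastoma line, and all 13 markers of noradrenergic neuroblastoma were present and tested. Of these, 9 were lower and 2 higher in si-CyCoNP (edgeR adjusted p under 0.05, which 14.2% of all tested genes passed in each direction), against 7 lower in DESeq2 and with library totals, and their summed level was 2570–3050 FPKM (fragments scaled to gene length and library size) in the si-SCR libraries and 2150–2320 FPKM in the si-CyCoNP libraries. Of 12 mesenchymal markers 6 were tested, 2 were lower and 2 higher, PRRX1 and MEOX2 were at 0, and the sums were 104–126 and 103–108 FPKM. Mean FN1 rose from 0.697 to 5.41 FPKM and COL1A1 from 0.45 to 1.5 FPKM, and both passed the filter only through si-CyCoNP. SNAI2 fell from 7.08 to 3.07 FPKM and VIM from 56.3 to 43.9 FPKM. VIM and TWIST1 (48.0 and 49.0 FPKM) made up most of the sums. The part of these marker changes in the results below was not tested, and in bulk RNA fewer cells that express a gene cannot be told apart from less RNA per cell.

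The genes of the vesicular transporter, SLC18A3, and of the muscarinic receptor among the 10, CHRM1, were lower after CyCoNP depletion. The nicotinic subunits moved in both directions. SLC18A3 and CHRM1 kept 15.3% and 10.1% of their library-normalised count, CHRNA7 kept 34.1% and CHRNA3 53.2%, whereas CHRNB2 and CHRNB4 rose to 125% and 130%. The study had already named SLC18A3 and CHRM1 among the transcripts that this knock-down affected most. Of the 10 genes, 7 had a mean of at least 1 FPKM in either group and were tested. All 7 passed the adjusted p of 0.05 (edgeR quasi-likelihood test, Benjamini-Hochberg adjustment over 13966 genes), 5 of them lower and 2 higher, where 28.4% of all tested genes passed. Called genes also needed a log2 fold change beyond 1. The 3 called, SLC18A3, CHRNA7 and CHRM1, were all lower, where 5.26% of all genes were called and 2.98% were called lower. The median log2 fold change was -0.91 over the 7 genes and 0.00534 over all tested genes. CHRNA7 and CHRM1 passed the filter only through si-SCR, so a lower level in si-CyCoNP was a condition of their entry, and these counts and medians are descriptions of the genes that passed.

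Without the filter, 9 of the 10 genes had a count and were tested among 26702 genes. All 9 passed the adjusted p, 7 lower and 2 higher, against 15.1% of all genes with a count. CHAT and ACHE joined the called genes, which made 5 called lower, against 1.95% of all genes called lower. The libraries of the 2 groups did not overlap in any of these 9 genes, and 24.9% of all genes with a count had groups without overlap.

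**Figure D1:**
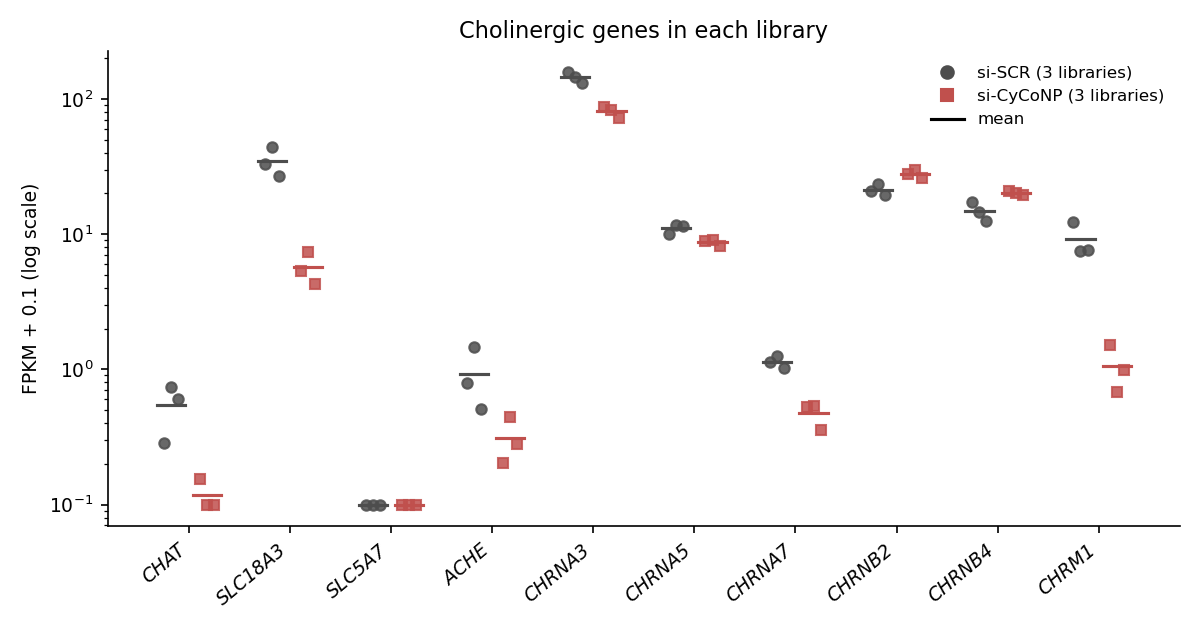
Level of each of the 10 genes in each library (vertical axis, FPKM + 0.1 on a log scale), with circles for the 3 si-SCR libraries, squares for the 3 si-CyCoNP libraries and lines for the means. The groups separate for 9 genes, downwards for 7 of them and upwards for CHRNB2 and CHRNB4, and SLC5A7 is at 0 in all 6 libraries.

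In si-SCR the levels followed the order CHRNA3, SLC18A3, CHRNB2, CHRNB4, CHRNA5, CHRM1, CHRNA7, ACHE, CHAT, SLC5A7 on the FPKM scale, from 144 FPKM for CHRNA3, above 98.4% of the tested genes, down to 0 for SLC5A7. The neighbours CHRNA5 and CHRM1, CHRNA7 and ACHE, and ACHE and CHAT overlapped in their libraries, and the other neighbours did not. In si-CyCoNP SLC18A3 stood in rank 5, below CHRNA5, in place of rank 2, and CHRNB2 and CHRNB4 followed CHRNA3 directly.

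The genes for synthesis and vesicular loading lie in 1 locus. CHAT (ENSG00000070748) spans chr10:49609095-49667942 on the plus strand (GRCh38), and SLC18A3 (ENSG00000187714), a gene with a single exon, spans chr10:49610310-49612720 on the same strand inside an intron of CHAT, 1.2 kb after its start. No exon of the one overlaps an exon of the other, and reads of unspliced CHAT RNA over SLC18A3 cannot be told apart from SLC18A3 reads. The promoters of both are shown from 250 bases before to 50 bases after the start site, since these 2 genes share a locus. They were read from the RefSeq annotation of GRCh38.p14, and 3 kinds of motif are in capitals where found, on either strand. These are the GC box GGGCGG, the core TGACG of cyclic AMP response elements, and the E-box form CAGCTG. Other forms of the E-box were not searched and stay in lower case.
SLC18A3 promoter, chr10:49610060-49610359, plus strand: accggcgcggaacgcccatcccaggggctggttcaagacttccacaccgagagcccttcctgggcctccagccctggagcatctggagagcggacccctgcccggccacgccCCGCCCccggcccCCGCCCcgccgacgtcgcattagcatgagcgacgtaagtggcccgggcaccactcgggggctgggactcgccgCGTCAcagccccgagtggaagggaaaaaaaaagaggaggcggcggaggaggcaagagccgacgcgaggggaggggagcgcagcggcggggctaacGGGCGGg
CHAT promoter, chr10:49608845-49609144, plus strand: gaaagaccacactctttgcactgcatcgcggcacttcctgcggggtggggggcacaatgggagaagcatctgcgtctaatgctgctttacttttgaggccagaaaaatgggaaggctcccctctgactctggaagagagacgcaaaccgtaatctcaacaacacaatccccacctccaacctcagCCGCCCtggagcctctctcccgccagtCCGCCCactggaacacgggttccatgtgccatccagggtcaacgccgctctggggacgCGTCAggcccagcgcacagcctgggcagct
The SLC18A3 window has a GC content of 72.0% with 3 GC boxes at -138, -125 and 44 from the start and a TGACG at -52. The first CHAT window has 60.0% GC, 2 GC boxes at -65 and -38 and a TGACG at 21. RefSeq lists 2 further CHAT starts behind SLC18A3, in the windows chr10:49612848-49613147 and chr10:49613787-49614086.

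SLC18A3 had 343, 396 and 308 counts in si-SCR, against 60, 75 and 42 in si-CyCoNP. Every si-CyCoNP library lay far below every si-SCR library. On the FPKM scale these were 34.5 ± 8.56 and 5.57 ± 1.59 (SD, n = 3), and edgeR put the log2 fold change at -2.69 (SE 0.178, adjusted p = 1.04e-11). The gene was called lower in all 14 alternative analyses, with log2 fold changes from -2.92 to -2.43.

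CHAT had 3, 9 and 9 counts in si-SCR, against 1, 0 and 0 in si-CyCoNP. It thus lay near the limit of detection in both groups, at 0.442 ± 0.232 and 0.0185 ± 0.0321 FPKM (SD, n = 3), and was not tested at the filter. Scaled to library totals alone, the 22 counts in all gave a ratio of 4.63% of the si-SCR level. The exact 95% interval of 0.112% to 28.8% covers counting error only. Per base of gene length, SLC18A3 RNA exceeded CHAT RNA by a log2 ratio (FPKM + 0.1) of 6.86, 5.89 and 5.48 in si-SCR, against 5.09, 6.21 and 5.43 in si-CyCoNP. The ranges overlap, with means of 6.08 ± 0.709 and 5.58 ± 0.578 (SD, n = 3; exact permutation test, two-sided, p = 0.4), and the ratio in si-CyCoNP rests on CHAT values of 0 in 2 libraries. With 1 FPKM added in place of 0.1, the difference was -1.94 with an exact permutation p of 0.1, the smallest that 3 libraries against 3 can give, so the ratio depended on the pseudocount.

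The genes next to this locus were measured too. Within 250 kb of the SLC18A3 start the annotation holds 10 genes, counting SLC18A3 itself, and 3 were tested. OGDHL, which encodes a relative of the mitochondrial oxoglutarate dehydrogenase and starts 152.1 kb downstream on the opposite strand, fell from 12.4 ± 1.46 to 4.17 ± 0.583 FPKM (SD, n = 3; log2 fold change -1.64, SE 0.132, edgeR adjusted p = 3.34e-10). ERCC6, a DNA repair gene on the opposite strand whose start lies at -70.8 kb, fell from 2.58 ± 0.110 to 1.46 ± 0.0989 FPKM (SD, n = 3; log2 fold change -0.89, SE 0.127, edgeR adjusted p = 4.33e-06). Both tested neighbours of SLC18A3 were thus lower, and 14.2% of all tested genes passed the adjusted p in this direction.

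**Figure D2:**
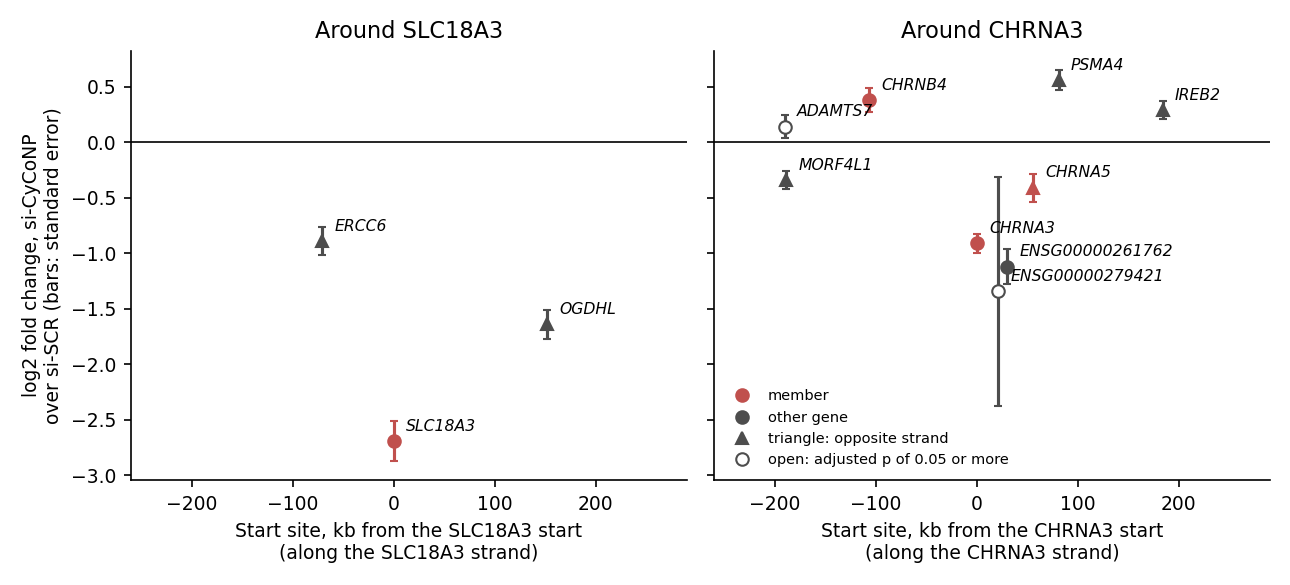
Log2 fold change of si-CyCoNP over si-SCR (vertical axis, bars show the standard error) of each tested gene against the distance of its start, in kb, from the start of SLC18A3 (left) or CHRNA3 (right). Around SLC18A3 all 3 points lie below 0, while around CHRNA3 the points lie on both sides.

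The 2 other genes of the transmitter cycle were scarce. SLC5A7 (ENSG00000115665, chr2:107986523-108013994, plus strand) had 0 counts in all 6 libraries, which allows a level of up to 0.234 CPM (counts scaled to the library total) in si-SCR and 0.227 CPM in si-CyCoNP. The transporter that recovers choline at cholinergic endings was therefore not detectable at this depth of counted fragments in either group. ACHE (ENSG00000087085, chr7:100889994-100896974, minus strand), the gene of acetylcholinesterase, had 12, 21 and 8 counts in si-SCR, against 2, 6 and 3 in si-CyCoNP. The groups do not overlap, with 0.822 ± 0.494 and 0.209 ± 0.125 FPKM (SD, n = 3). Scaled to library totals alone, 26.1% of the level remained, with an exact 95% interval of 12.1% to 51.7% for counting error. ACHE missed the filter of 1 FPKM, and without the filter its log2 fold change was -1.99 (edgeR, adjusted p = 0.00301).

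Other genes of choline supply and acetylcholine breakdown did not move one way. Of 15 genes in this list 10 were tested, 3 fell and 3 rose (edgeR adjusted p under 0.05, against 14.2% of all tested genes in each direction), and the median log2 fold change was -0.09. The choline transporter-like genes SLC44A2 and SLC44A1 fell, SLC44A2 from 5.87 ± 0.835 to 2.35 ± 0.263 FPKM (log2 fold change -1.38, adjusted p = 7.09e-07) and SLC44A1 from 1.20 ± 0.155 to 0.641 ± 0.249 FPKM (log2 fold change -0.97, adjusted p = 0.00304; SD, n = 3). PCYT1B and PCYT1A, whose enzymes commit choline to phosphatidylcholine, rose with log2 fold changes of 0.87 and 0.37. COLQ and PRIMA1 encode the proteins that anchor acetylcholinesterase in the matrix and in the membrane. COLQ rose by a log2 fold change of 1.43 on 20 counts in si-SCR and 59 in si-CyCoNP, and PRIMA1 fell by 0.60 on the log2 scale, and neither passed in DESeq2 (adjusted p = 0.0836 and 0.0871). SLC44A1 passed the filter only through si-SCR and COLQ only through si-CyCoNP. The most abundant of the list, ACLY, which makes cytosolic acetyl-CoA, was at 165 ± 3.88 and 157 ± 2.23 FPKM (SD, n = 3; adjusted p = 0.15). BCHE, the gene of butyrylcholinesterase, the other enzyme that splits acetylcholine, had 27.5 ± 1.73 and 27.0 ± 0.955 FPKM (SD, n = 3; adjusted p = 0.52), so that its level on the FPKM scale stood far above that of ACHE in both groups.

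Among the receptors, 3 nicotinic subunit genes lie side by side on chromosome 15. CHRNA3 (ENSG00000080644, chr15:78593052-78621295, minus strand) encodes the main alpha subunit of ganglionic receptors, CHRNB4 (ENSG00000117971, chr15:78624111-78727754, minus strand) a beta subunit that pairs with it, and CHRNA5 (ENSG00000169684, chr15:78565520-78595269, plus strand) an accessory alpha subunit. The annotated end of CHRNB4 lies 2.8 kb upstream of the CHRNA3 start. CHRNA5 runs towards CHRNA3 on the other strand, and their annotated ends overlap. The promoters of CHRNA3 and CHRNB4 are shown because the 2 genes are neighbours on 1 strand and differed in opposite directions.
CHRNA3 promoter, chr15:78620947-78621246, minus strand: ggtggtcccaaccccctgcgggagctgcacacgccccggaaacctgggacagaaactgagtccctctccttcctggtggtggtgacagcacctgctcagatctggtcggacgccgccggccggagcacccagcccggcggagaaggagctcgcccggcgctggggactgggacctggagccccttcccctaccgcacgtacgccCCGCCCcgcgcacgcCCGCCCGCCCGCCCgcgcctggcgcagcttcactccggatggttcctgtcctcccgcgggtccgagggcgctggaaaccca
CHRNB4 promoter, chr15:78641161-78641460, minus strand: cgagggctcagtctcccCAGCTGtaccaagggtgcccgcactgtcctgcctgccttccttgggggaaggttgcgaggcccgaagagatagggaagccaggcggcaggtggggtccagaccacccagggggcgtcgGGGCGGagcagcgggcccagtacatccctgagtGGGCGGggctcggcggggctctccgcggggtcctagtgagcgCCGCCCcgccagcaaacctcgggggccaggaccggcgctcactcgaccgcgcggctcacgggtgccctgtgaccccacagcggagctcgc
Both windows have a GC content of 72.7%. The CHRNA3 window holds 4 GC boxes, at -46, -31, -27 and -23. The CHRNB4 window holds 3, at -115, -82 and -40, and the E-box form CAGCTG at -233. The CHRNB4 start of RefSeq lies inside the longer gene body of the GENCODE annotation.

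CHRNA3 had 3219, 2589 and 2984 counts in si-SCR, against 1990, 1663 and 1429 in si-CyCoNP, by far the highest of the 10 genes in every library. It fell from 144 ± 13.2 to 80.6 ± 7.48 FPKM (SD, n = 3) without overlap. edgeR put the log2 fold change at -0.91 (SE 0.0875, adjusted p = 7.61e-09), just under the size needed for a call, and the 14 alternatives gave values between -0.99 and -0.83.

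CHRNB4 had 366, 271 and 297 counts in si-SCR, against 495, 422 and 402 in si-CyCoNP. Every si-CyCoNP library was higher, with means of 14.7 ± 2.33 and 20.0 ± 0.626 FPKM (SD, n = 3). edgeR put the log2 fold change at 0.38 (SE 0.109, adjusted p = 0.00918), and without si-SCR replicate 3 it was 0.25 with an adjusted p of 0.0569. CHRNB2 (ENSG00000160716, chr1:154567778-154580013, plus strand), the other neuronal beta subunit, had 524, 516 and 544 counts in si-SCR, against 782, 745 and 627 in si-CyCoNP. It rose from 21.1 ± 2.02 to 27.7 ± 2.05 FPKM (SD, n = 3; log2 fold change 0.33, SE 0.0930, edgeR adjusted p = 0.00887), and without si-CyCoNP replicate 2 the adjusted p was 0.0637. Both beta subunit genes thus rose by a similar and small amount, each with a call on the adjusted p that 1 library could remove.

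CHRNA5 had 155, 158 and 198 counts in si-SCR, against 154, 137 and 122 in si-CyCoNP. The counts of 2 libraries nearly meet, and the FPKM values of 9.96, 11.6 and 11.4 against 8.86, 8.90 and 8.12 are separate. edgeR put the log2 fold change at -0.41 (SE 0.126, adjusted p = 0.014). The adjusted p was 0.0504 in DESeq2, 0.0626 when si-SCR replicate 2 was left out and 0.0583 when si-CyCoNP replicate 3 was, and CHRNA5 passed in the other 11 of 14 alternatives.

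CHRNA7 (ENSG00000175344, chr15:31923438-32173018, plus strand) encodes the alpha subunit that forms receptors on its own. It had 94, 91 and 93 counts in si-SCR, against 43, 39 and 22 in si-CyCoNP. The si-CyCoNP libraries lay below the si-SCR libraries, at 0.373 ± 0.104 against 1.04 ± 0.113 FPKM (SD, n = 3), and edgeR gave a log2 difference of -1.53 (SE 0.210, adjusted p = 2.4e-06). Its level is low, and several limits apply to it. The FPKM values rest on a gene length of 20978 bases, without si-SCR replicate 2 its mean fell under the filter and it was not tested, and with limma on log2(FPKM + 1) and log2(FPKM + 0.1) it did not pass (log2 fold change -0.57 and -1.29, adjusted p = 0.139 and 0.092). With glmTreat, edgeR's test against the fold of a call itself, it was not called (adjusted p = 0.155). It also shares near-identical exons with its partial copy CHRFAM7A, and fragments that map to both are left out of the counts. CHRFAM7A had 25, 9 and 21 counts in si-SCR, against 3, 4 and 1 in si-CyCoNP, with a log2 fold change of -2.81 without the filter (edgeR, adjusted p = 3.1e-06), and the split of reads between the pair is uncertain.

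The mixture of nicotinic subunit RNA was then compared between the groups. The summed FPKM of the 5 subunits was 206, 195 and 175 in si-SCR, against 145, 141 and 126 in si-CyCoNP. CHRNA3 made up 76.3%, 74.1% and 74.8% of this sum in si-SCR, against 60.2%, 58.2% and 57.5% in si-CyCoNP, with means of 75.1% ± 1.13 and 58.6% ± 1.39 (SD, n = 3). The share of CHRNB2 ranged from 10.1% to 12.0% in si-SCR and from 19.1% to 21.1% in si-CyCoNP, and that of CHRNB4 was 7.60% ± 0.612 and 14.6% ± 0.727 (SD, n = 3). For CHRNA3, CHRNB2, CHRNB4 and CHRNA7 the groups did not overlap (exact permutation test, two-sided, p = 0.1 each, the smallest that 3 against 3 libraries allow, and 0.125 adjusted over the 5 shares), so no share could reach a p of 0.05. CHRNA5 had 5.76% ± 0.860 and 6.29% ± 0.166 (SD, n = 3; exact permutation p = 0.5, adjusted 0.5). The 5 shares are parts of 1 sum, so a fall of CHRNA3 raises the other shares even at unchanged levels. The tests of the 5 shares are therefore not independent. Per base, there were 9.21, 10.0 and 10.5 parts of CHRNA3 to 1 of CHRNB4 in si-SCR, against 4.21, 4.13 and 3.72 in si-CyCoNP, a ratio chosen after the values had been seen and given without a test.

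**Figure D3:**
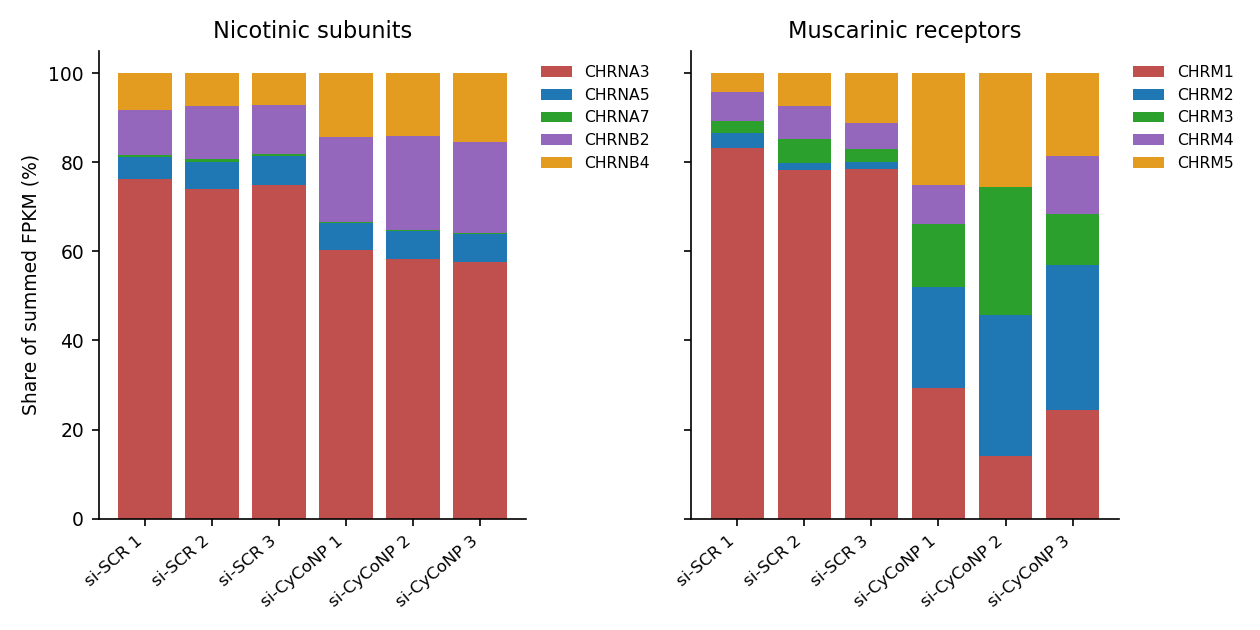
Share of the summed FPKM in percent (vertical axis) that each nicotinic subunit gene (left) and each muscarinic receptor gene (right) takes in each of the 6 libraries. CHRNA3 takes 75.1% of the nicotinic sum in si-SCR and 58.6% in si-CyCoNP, and CHRM1 takes 80.1% and 22.6% of the muscarinic sum, as means of 3 libraries.

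The genes around the chromosome 15 group did not share a direction. Within 250 kb of the CHRNA3 start the annotation holds 20 genes, and 9 were tested. PSMA4, a proteasome subunit gene, rose from 22.9 ± 2.57 to 35.4 ± 2.42 FPKM (SD, n = 3; log2 fold change 0.56, edgeR adjusted p = 1.67e-05), and IREB2, which encodes an iron response regulator, rose by a log2 fold change of 0.29 (adjusted p = 0.00863). MORF4L1, a chromatin gene, fell with a log2 fold change of -0.34 (adjusted p = 0.00149), and ADAMTS7, a metalloprotease gene, had 0.14 (adjusted p = 0.358). The long noncoding RNA ENSG00000261762 lies from 30.0 to 32.2 kb behind the CHRNA3 start on the same strand, just past the end of CHRNA3. It also lies within the span of CHRNA5, on the strand opposite to that gene. It fell from 15.4 ± 1.38 to 7.41 ± 1.24 FPKM (SD, n = 3; log2 fold change -1.12, SE 0.158, edgeR adjusted p = 3.79e-06). ENSG00000279421, inside CHRNA3 on its strand, rested on 14 counts and had a log2 fold change of -1.34 (adjusted p = 0.371).

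Proteins that fold, traffic or cluster receptors formed a list of 15 genes, of which 4 were tested, 2 fell and 0 rose, where 14.2% of all tested genes fell. AGRN, the gene of agrin, which clusters receptors at the neuromuscular junction, fell from 1.26 ± 0.180 to 0.546 ± 0.200 FPKM (SD, n = 3; log2 fold change -1.24, edgeR adjusted p = 0.000491). RIC3, a chaperone of nicotinic receptors that acts on the product of CHRNA7, fell from 1.87 ± 0.547 to 1.12 ± 0.0869 FPKM (SD, n = 3; log2 fold change -0.80, edgeR adjusted p = 0.0101). LY6E, the most abundant, had 34.1 ± 1.42 and 32.3 ± 2.76 FPKM (SD, n = 3; adjusted p = 0.287). AGRN passed the filter only through si-SCR. TMEM35A, another chaperone of nicotinic receptors, was tested with a log2 fold change of 1.11 (adjusted p = 0.122). It passed the filter only through si-CyCoNP, on 17 counts in si-SCR and 40 in si-CyCoNP, and its groups overlapped.

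The muscarinic receptor gene among the 10 had the largest fold change of the 7 tested. CHRM1 (ENSG00000168539, chr11:62908679-62921807, minus strand) encodes a receptor that signals through Gq to phospholipase C. Its RefSeq promoter is shown as that of the gene with the largest decrease among the 7 tested.
CHRM1 promoter, chr11:62921314-62921613, minus strand: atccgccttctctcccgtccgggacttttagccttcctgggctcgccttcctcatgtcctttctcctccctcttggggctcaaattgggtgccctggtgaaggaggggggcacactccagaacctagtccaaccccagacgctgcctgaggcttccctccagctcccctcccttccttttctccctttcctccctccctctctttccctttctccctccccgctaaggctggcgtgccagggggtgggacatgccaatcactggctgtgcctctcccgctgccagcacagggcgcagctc
The window has 62.7% GC and none of the motifs searched, so that it carries no capitals.

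CHRM1 had 169, 91 and 117 counts in si-SCR, against 22, 8 and 12 in si-CyCoNP. The highest si-CyCoNP library lay far below the lowest si-SCR library. The means were 9.03 ± 2.67 and 0.960 ± 0.420 FPKM (SD, n = 3), and edgeR gave a log2 difference of -3.27 (SE 0.269, adjusted p = 4.89e-10). It was called lower in all 14 alternatives, from -3.68 to -2.34, the smallest on the compressed log2(FPKM + 1) scale.

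The other muscarinic receptor genes were low in both groups. CHRM2, whose receptor acts through Gi, had 17, 5 and 6 counts in si-SCR, against 43, 46 and 41 in si-CyCoNP and passed the filter only through si-CyCoNP. It rose from 0.262 ± 0.185 to 1.19 ± 0.112 FPKM (SD, n = 3; log2 fold change 2.10, SE 0.353, edgeR adjusted p = 4.25e-05) and was the 1 gene tested of 15 other nicotinic and muscarinic receptor genes. Without the filter 10 of the 15 were tested, and CHRM3, which like CHRM1 couples to Gq, also rose (21, 23 and 16 counts against 40, 61 and 21, log2 fold change 0.91, edgeR adjusted p = 0.011). CHRM5 had 0.798 ± 0.242 and 0.979 ± 0.272 FPKM and CHRM4 0.727 ± 0.187 and 0.298 ± 0.260 FPKM (SD, n = 3), and neither passed. CHRNA2, CHRNA4, CHRNB3, CHRND and CHRNG were at 0 in all libraries.

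As a share of the summed FPKM of the 5 muscarinic receptor genes, CHRM1 took 83.3%, 78.2% and 78.6% in si-SCR, against 29.4%, 14.1% and 24.4% in si-CyCoNP. CHRM2 took 2.18% ± 0.953 in si-SCR and 28.9% ± 5.57 in si-CyCoNP, CHRM3 3.64% ± 1.42 and 18.1% ± 9.26, and CHRM5 7.62% ± 3.48 and 23.1% ± 3.93 (SD, n = 3). The sum itself went from 11.2 ± 2.88 to 4.19 ± 0.574 FPKM (SD, n = 3). The shares are parts of this sum, so a fall of CHRM1 raises the others even at unchanged levels. These shares were chosen after the values had been seen and are given without a test.

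Downstream of Gq, 11 of 15 genes were tested, 3 fell and 2 rose (14.2% of all tested genes in each direction), none was called, and the median log2 fold change was -0.14. ITPR1, a calcium release channel that opens with the phospholipase C product, fell from 7.13 ± 1.36 to 3.81 ± 0.0584 FPKM (log2 fold change -0.98, edgeR adjusted p = 6.86e-08), whereas ITPR2, its relative, rose from 2.74 ± 0.256 to 5.22 ± 0.891 FPKM (SD, n = 3; log2 fold change 0.86, adjusted p = 6.61e-06). KCNQ5, a gene of the potassium channels that muscarinic receptors close, fell with a log2 fold change of -0.81 (adjusted p = 9.95e-06). GNA11, a Gq family alpha subunit, rose by 0.58, and PLCB3, a phospholipase C, fell by 0.48 on the log2 scale. PLCB3 did not pass in DESeq2 (adjusted p = 0.0872). RGS4, an inhibitor of Gq signalling and the most abundant of the list, had 120.0 ± 11.4 and 114 ± 10.6 FPKM (SD, n = 3; adjusted p = 0.255). With the replicate number as a block RGS2, another such inhibitor, also passed (adjusted p = 0.0255 against 0.0644).

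**Figure D4:**
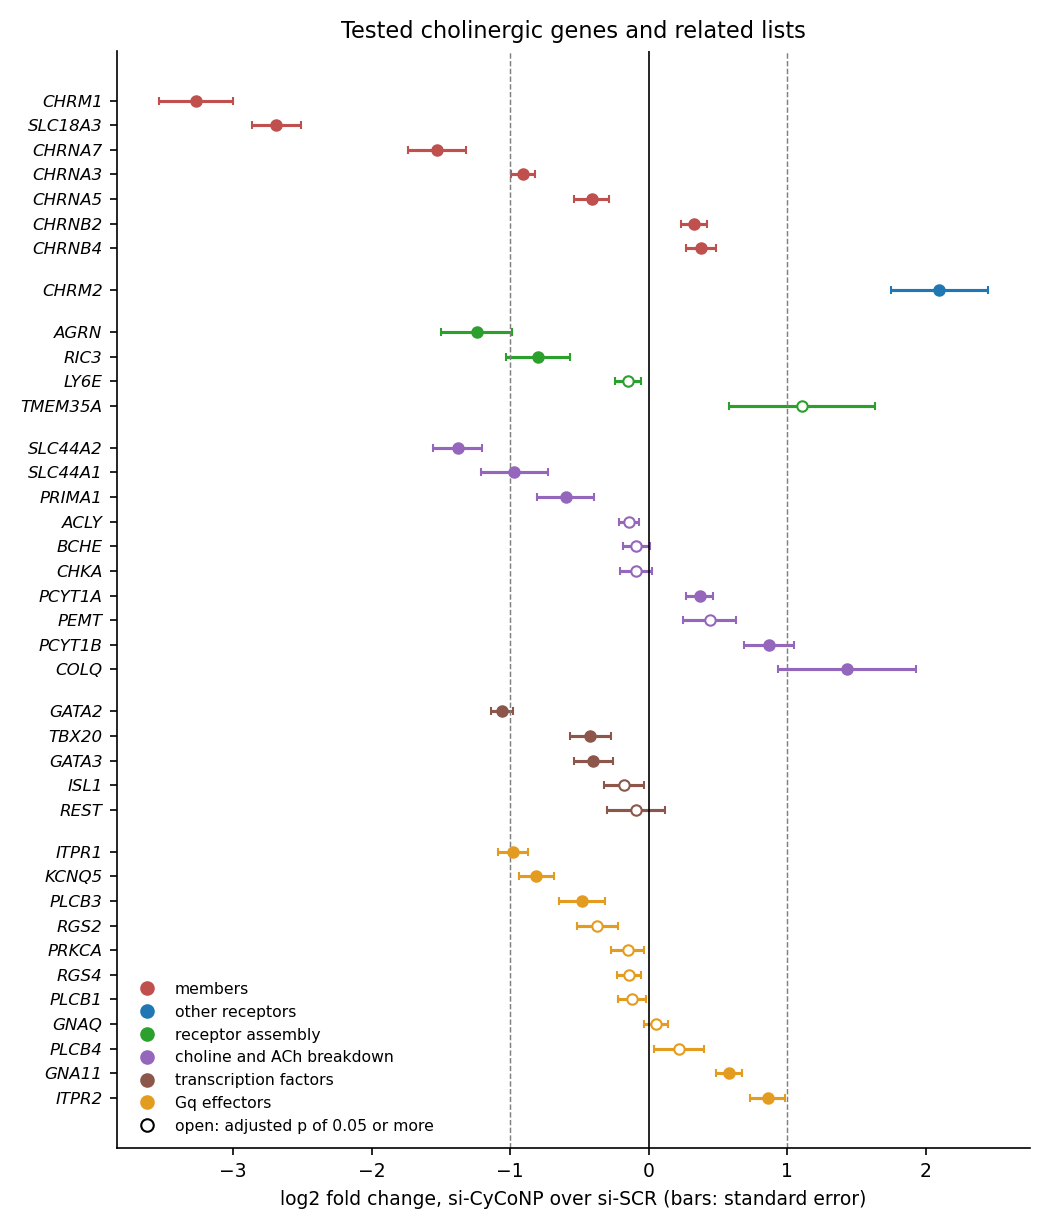
Log2 fold change of si-CyCoNP over si-SCR (horizontal axis, bars show the standard error) of the 7 tested members and the tested genes of the 5 related lists. Filled points have an edgeR adjusted p under 0.05, dashed lines mark the fold needed for a call, and CHRM1 and SLC18A3 lie farthest to the left.

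Of 18 transcription factors listed for cholinergic and motor neurons, 5 were tested, 3 fell and 0 rose, where 14.2% of all tested genes fell. GATA3 and ISL1 of this list are also among the noradrenergic markers above. These counts therefore do not describe a programme of cholinergic or motor neurons alone. GATA2, a zinc finger factor of sympathetic and other neurons, was the most abundant and fell from 342 ± 22.6 to 172 ± 9.95 FPKM (SD, n = 3; log2 fold change -1.06, SE 0.0795, edgeR adjusted p = 9.24e-11). With library totals in place of the TMM scaling GATA2 was the 1 gene of the 5 that passed, and it was not called. GATA3 and TBX20, a factor of cranial motor neurons, fell with log2 fold changes of -0.40 and -0.42, and neither passed in DESeq2 (adjusted p = 0.35 and 0.11). ISL1, which drives the cholinergic programme of motor neurons, had 27.7 ± 8.08 and 25.5 ± 3.04 FPKM (SD, n = 3; adjusted p = 0.381), and REST, a repressor of neuronal genes, had 1.42 ± 0.162 and 1.39 ± 0.0567 FPKM (SD, n = 3; adjusted p = 0.792). The motor neuron factors LHX3, MNX1 and ISL2 had few or no counts.

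Across the 9 members with a RefSeq promoter there were 14 windows. The GC box was present in 11 of them, and in 66.9% of the promoter windows of tested genes and 45.0% of all 35116. The TGACG core was in 5 of 14, against 32.8% of the windows of tested genes. The E-box CAGCTG was in 1 window (16.9% of those of tested genes), and the letters AGGTCA of retinoid receptor elements were in 1 (9.87%), that of CHRNB2. The RE1 element that REST binds was searched by its left part, TCAGCAC, and by its right part with the letters GGACAGC, and neither was in any of the 14 windows (3.92% and 6.50% of those of tested genes). Windows of 1 gene overlap in part, and a match in these letters is a description of the sequence. Neither variants of these letters nor sequence outside the windows was searched. The absence of the RE1 parts therefore does not show that the members lack the element.

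The study examined the microRNA miR-4492 as a partner of CyCoNP, so matches to its seed were counted in the members. The mature sequence, from RefSeq, is shown with the seed in capitals (bases 2 to 8), followed by the matching sites of 7 bases (CCAGCCC, in capitals) in SLC18A3 and CHRNB2, within windows of 30 bases of the 3′ untranslated regions of the canonical GENCODE transcripts.
hsa-miR-4492: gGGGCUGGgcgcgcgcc
SLC18A3, site at chr10:49612356-49612362: ccactcctcctCCAGCCCacccaaccgcct
CHRNB2, site at chr1:154576160-154576166: catctcttgtaCCAGCCCaggcaatagtgt
SLC18A3 has 1 site, at base 17 of 381, CHAT 4 sites in 2896 bases and CHRNB2 1 site in 4081 bases, and no site was found in the other 7. Of the tested genes 23.4% have at least 1 site, with shares from 8.79% of those with the shortest of these regions to 34.4% of those with the longest. Of the 3 genes with a site, SLC18A3 fell, CHRNB2 rose and CHAT, too low for the filter, was called lower without it, while CHRM1, CHRNA3, CHRNA5 and CHRNA7 fell without one. The level of the microRNA was not measured in these libraries. The study measured its level by RT-qPCR and found it unchanged by the knock-down. The study's targets came from combined prediction programs, a different rule from this seed count. Among them was SLC18A3, which in the study rose slightly when the microRNA was blocked and was lower in CyCoNP knock-out motor neurons. CHRM1, which fell when NCAM1 was silenced, was reported as no predicted target.

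The fold changes of the 7 tested members were computed again in 13 or 14 alternative analyses each. DESeq2 changes the test and the scaling together, and limma the test, the values and a pseudocount, whereas the others change 1 choice. The direction was the same in all of these, and the adjusted p stayed under 0.05 in 90. The 7 where it did not were those given above for CHRNA5, CHRNA7, CHRNB2 and CHRNB4, and none concerned SLC18A3, CHRNA3 or CHRM1.

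**Figure D5:**
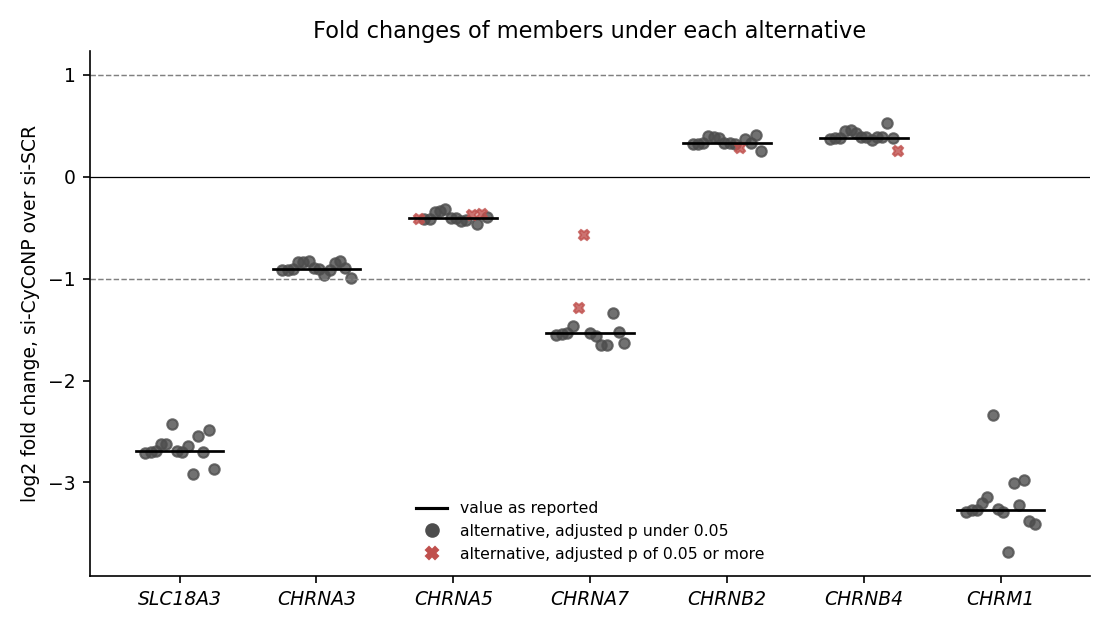
Log2 fold change of si-CyCoNP over si-SCR (vertical axis) of each tested member in the analysis reported (black lines) and in each alternative (points), with crosses where the adjusted p was 0.05 or more. The values of SLC18A3 and CHRM1 stay between -3.68 and -2.34, while CHRNA5, CHRNB2 and CHRNB4 lie within the dashed lines of a log2 fold change of 1.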

How the data were processed

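Total RNA of 6 SK-N-BE libraries, 3 si-SCR and 3 si-CyCoNP, was depleted of ribosomal RNA and sequenced by the authors with a stranded kit. Per the study's methods and the submitters' processing notes, reads were trimmed with Trimmomatic 0.39 and Cutadapt 3.2, ribosomal reads were removed with Bowtie2 2.4.2, and uniquely mapping fragments were counted per Ensembl gene on GRCh38 with STAR 2.7.7a. The deposited count table holds these raw counts. The deposited FPKM table holds the same counts scaled by the authors to gene length and library total. Multiply mapping fragments were not counted, which lowers genes with near-identical copies such as CHRNA7. The strand setting of the counting is not given in the sources used here. Of genes wholly inside an exon of another gene, 26.8% had a count where the strands differ and 8.75% where they are the same. Of 60676 genes, 60357 matched a symbol, all 10 members among them. Counts are not corrected for PCR duplicates, and intervals cover counting error only. A level of 3 counts was taken as the floor.

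Genes with a mean of at least 1 FPKM in either group (13966) entered the edgeR 4.0.16 quasi-likelihood test (R 4.3.3, TMM scaling) and Benjamini-Hochberg adjustment over all of them. The biological coefficient of variation was 8.57%. The study's methods name DESeq2, and DESeq2 1.42.0 was run as an alternative, as were other scalings and filters, limma 3.58.1 on the log2 FPKM scale, glmTreat, a replicate block and the removal of each library. No library was a copy of another: chi-square divided by its degrees of freedom was 2.42 to 5.16 between replicates of a group. Replicate numbers come from the sample titles. Deviations from the group means correlated at 0.127, 0.106 and 0.136 between equal numbers and at -0.044 or less between unequal numbers. Libraries of equal number may therefore be paired. Only the replicate block used this, and the edgeR fit reported ignored it. Shares and ratios were compared with exact permutation tests, which also permuted the libraries without pairs. Coordinates are those of GENCODE release 44 on GRCh38, and promoters and the microRNA are those of RefSeq on GRCh38.p14. CHRNA5 has no promoter entry in the table used. The members, the gene lists and the tests were chosen with earlier results of these data known. The genes named were the members, LINC02381, the genes of each list past the adjusted p (at most 6) with the most abundant gene, the tested neighbours of SLC18A3 and CHRNA3, and the 3 genes most like SLC18A3 and CHRM1. Other genes were named after their values had been seen. A Schwann cell marker list, 1 gene of the list of Gq effectors and the CHAT site sequences are not reported here.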

Additional observations from a re-analysis of the deposited data

How the results depend on the processing

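SLC18A3 and CHRM1 were called lower, and CHRNA3 passed the adjusted p, in all 14 alternatives that test for any change, and SLC18A3 and CHRM1 were also called with glmTreat. With each library left out in turn, log2 fold changes ranged from -2.92 to -2.49 for SLC18A3, -3.68 to -2.98 for CHRM1, -0.99 to -0.83 for CHRNA3, -0.47 to -0.37 for CHRNA5, -1.65 to -1.34 for CHRNA7, 0.25 to 0.41 for CHRNB2 and 0.25 to 0.53 for CHRNB4. The number of members called was 2 without si-SCR replicate 2, where CHRNA7 was not tested, 2 with glmTreat and with limma on either log2 FPKM scale, where CHRNA7 was not called, 4 without si-SCR replicate 3, where ACHE entered the test, and 5 with no filter, because CHAT and ACHE were then tested. With no filter 2 of the other receptor genes passed the adjusted p, and with library totals 1 of the transcription factors did. Over all genes, 735 were called, 648 with DESeq2, 387 with limma on log2(FPKM + 1), which compresses low values, and 133 with glmTreat, which tests against the fold itself. Library totals alone shifted the log2 median over genes by 0.0668 and turned the split of calls from 416 lower and 319 higher to 350 lower and 394 higher, with the direction of each member kept. With the replicate block, 752 genes were called in all and 4771 passed the adjusted p, against 3972 without it. Among the members and named genes, the block changed the result at the adjusted p for RGS2 only. As shares of summed counts in place of FPKM, which weights long genes more, the difference in percentage points was -1.18 for CHRNA7 (-0.273 by FPKM) and 10.7 for CHRNB2 (9.20 by FPKM). The difference of the SLC18A3 to CHAT log2 ratio was -1.94 with 1 FPKM added and -0.50 with 0.1 FPKM added, and without any pseudocount it could not be computed, since CHAT was at 0 in 2 libraries. The number of counted fragments limits CHAT, ACHE and SLC5A7, and no exact test that permutes 3 libraries against 3 without pairs could reach a p below 0.1.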

Other observations

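The genes whose pattern over the 6 libraries was most like that of SLC18A3, by the mean absolute difference of centred log2 CPM, were DIPK1A (0.113), GCH1 (0.171) and STMN4 (0.214). GCH1, whose enzyme starts the synthesis of the tetrahydrobiopterin cofactor of catecholamine synthesis, stood at 26.2 ± 5.64 FPKM (si-SCR) and 4.79 ± 1.13 FPKM (si-CyCoNP; SD, n = 3). STMN4, a gene of the stathmin family of microtubule regulators, had 3.31 ± 0.676 and 0.536 ± 0.139 FPKM, and DIPK1A 5.53 ± 1.45 and 0.853 ± 0.199 FPKM (SD, n = 3). The log2 fold changes were -2.73 for DIPK1A, -2.52 for GCH1 and -2.68 for STMN4. The genes were picked by this likeness, so fold changes near that of SLC18A3 follow from the choice. DIPK1A and STMN4 passed the filter only through si-SCR.

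For CHRM1 the most alike were FAXDC2 (0.331), PLPP4 (0.347) and PARM1 (0.352), a looser likeness than that of SLC18A3 with its leading genes. PLPP4, a lipid phosphatase gene, stood at 17.1 ± 4.91 and 2.27 ± 0.248 FPKM, FAXDC2 7.60 ± 2.60 and 0.970 ± 0.286 FPKM, and PARM1 11.5 ± 3.68 and 1.64 ± 0.454 FPKM (SD, n = 3). FAXDC2 passed the filter only through si-SCR. The measures of likeness rest on 6 libraries in 2 groups and follow mainly the difference between the groups, so decreases near that of CHRM1 follow from the choice.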
